A study of Mus musculus with 4 samples.

Results

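Genes of the cell cycle and of DNA replication were followed in hair follicles of hairless mutant mice and their heterozygous littermate controls. The members were a list of 46 genes by symbol, grouped here by role into 7 G1/S regulators and checkpoint genes, 20 replication genes and 19 mitosis genes. Of the 46 genes, 45 had a probe set that carried their symbol alone, with 88 probe sets in all among the 22626 that were not controls. After the dimmest probe sets were left out, 44 genes and 71 of their probe sets stayed in the test, out of 8556 named genes and 13575 probe sets. Ccnb1, the mitotic cyclin B1, had no such probe set. Tyms, which encodes thymidylate synthase, had 3 and none was bright enough to be kept.

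The study profiled follicles of dorsal skin from untreated male mice at day 14 after birth on 1-colour Affymetrix arrays. The mutant group was homozygous for the recessive Hos:HR-1 allele of Hr (Hr<Hos>/Hr<Hos>, 2 samples, replicates 2 and 3), and the control group was heterozygous for it (+/Hr<Hos>, 2 samples, replicates 3 and 4), so the control follicles carried 1 copy of the mutant allele as well. All were N1 offspring of a cross of the HR-1 strain with ICR mice, crossed back to HR-1, and 50 to 70 follicles were pooled per sample by laser capture. Homozygous replicate 3 has conflicting labels: the title puts it with the homozygous samples, whereas the strain field reads as heterozygous. Here the title was followed, and results are also given with this sample grouped by the strain field. Values per sample are given below in the order heterozygous replicates 3 and 4 against homozygous replicates 2 and 3. The labels tie no array to an animal, so the spread between the 2 samples of a group may be technical.

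A hair follicle in its growth phase is fed by the matrix, a collar of keratinocytes at its base that divide rapidly before they form the shaft and the inner root sheath. Cells that commit to divide use D-type and E-type cyclins with their kinases to release E2F transcription factors, which drive genes of replication. Licensing factors then load the MCM helicase onto origins, and polymerases, clamp proteins and nucleotide-making enzymes copy the DNA. Mitosis genes peak later, in G2 and M, under other promoter elements, among them the cell cycle genes homology region (CHR) and the CCAAT box bound by NF-Y.

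This division by role was visible in the promoters. A window from 250 bases before to 50 bases after the start of each gene was searched on both strands for runs of letters. E2F-type letters were the run TTCCCGC. They also included the variant written TTCGCGC. Another variant searched was TTGCCGC. The last variant searched was TTGGCGC. The CHR was searched as TTTGAA, and the box bound by NF-Y as CCAAT. Matches of different elements may overlap. RefSeq windows of GRCm38.p6 matched 39 of the 46 members, with 43 promoters. E2F-type letters were found in 15 of 22 promoters of replication genes (68.2%) and in 3 of 16 of mitosis genes (18.8%), against 12.1% of 21263 promoters of protein-coding genes and 9.57% of all 32851 promoters. A CHR together with a CCAAT box was found in 11 of 16 promoters of mitosis genes (68.8%) and in 2 of 22 of replication genes (9.09%), against 6.38% of protein-coding and 6.95% of all promoters. A match is a run of letters and not a shown binding site, and some genes have several promoters in the table.

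**Figure D1:**
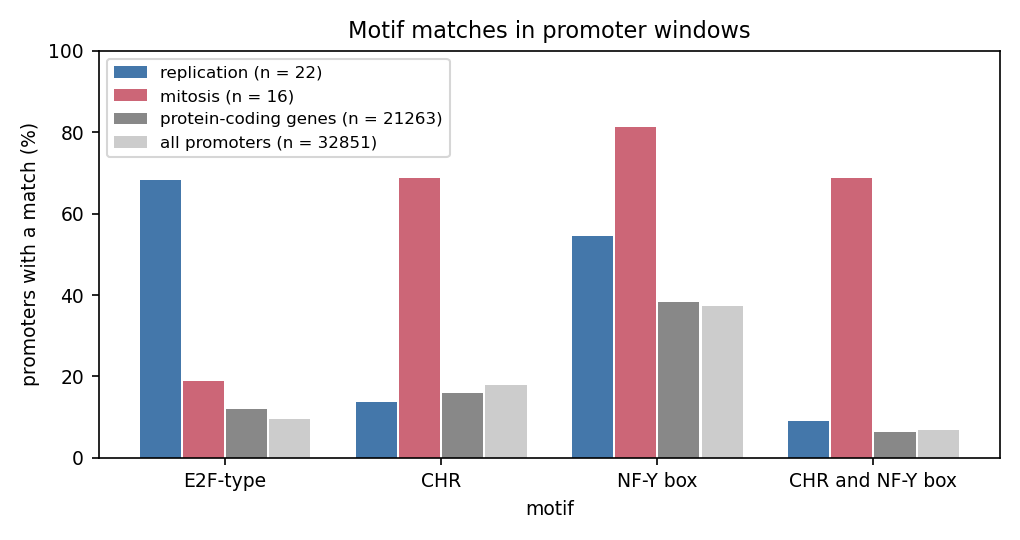
Percentage of promoter windows with at least 1 match to E2F-type letters, the CHR, the CCAAT box (NF-Y box) or both of the latter, for replication genes, mitosis genes, all protein-coding genes and all promoters of the table. E2F-type letters stand out in replication genes (68.2%) and the CHR with an NF-Y box in mitosis genes (68.8%).

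Windows of 2 replication genes and 2 mitosis genes show the elements, with every match in capitals, 5′ to 3′ on the strand of the gene. Mcm3 (chr1:20820263-20820562 (minus strand)) and Prim1 (chr10:128014965-128015264 (plus strand)) were the replication genes with E2F-type letters whose expression is described below as furthest above and furthest below 0 apart from Gmnn, for which no window was at hand. Cdk1 (chr10:69352863-69353162 (minus strand)) holds all 3 elements, and Ube2c (chr2:164769679-164769978 (plus strand)) has the CHR and 6 CCAAT matches.
Mcm3: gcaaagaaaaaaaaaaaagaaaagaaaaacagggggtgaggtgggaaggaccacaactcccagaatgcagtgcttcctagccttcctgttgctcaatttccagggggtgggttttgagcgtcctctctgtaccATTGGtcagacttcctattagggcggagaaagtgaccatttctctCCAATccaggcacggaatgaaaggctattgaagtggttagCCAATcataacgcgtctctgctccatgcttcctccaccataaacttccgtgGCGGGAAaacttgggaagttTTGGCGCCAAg
Prim1: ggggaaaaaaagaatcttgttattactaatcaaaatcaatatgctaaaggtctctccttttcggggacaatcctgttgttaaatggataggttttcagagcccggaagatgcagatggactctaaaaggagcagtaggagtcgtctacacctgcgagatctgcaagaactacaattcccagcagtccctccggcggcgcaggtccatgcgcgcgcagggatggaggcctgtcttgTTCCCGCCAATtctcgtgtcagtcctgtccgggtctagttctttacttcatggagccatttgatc
Cdk1: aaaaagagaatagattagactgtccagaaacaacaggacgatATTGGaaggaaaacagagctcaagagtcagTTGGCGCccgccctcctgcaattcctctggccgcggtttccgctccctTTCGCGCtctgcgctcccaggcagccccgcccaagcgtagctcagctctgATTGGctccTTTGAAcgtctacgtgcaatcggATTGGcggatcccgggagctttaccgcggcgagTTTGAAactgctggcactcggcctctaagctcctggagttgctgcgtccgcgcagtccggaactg
Ube2c: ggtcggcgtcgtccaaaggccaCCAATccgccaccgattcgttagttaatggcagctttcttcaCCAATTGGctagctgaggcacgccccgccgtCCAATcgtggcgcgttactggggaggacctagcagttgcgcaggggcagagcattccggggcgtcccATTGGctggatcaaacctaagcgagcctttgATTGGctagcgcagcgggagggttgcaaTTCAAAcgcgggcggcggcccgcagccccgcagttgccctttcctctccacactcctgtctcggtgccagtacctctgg
Mcm3 had 3 E2F-type and 3 CCAAT matches, and Prim1 had 1 of each, which overlap. Some neighbouring E2F-type matches of Mcm3 and CCAAT matches of Ube2c share letters on opposite strands, so the counts are not of separate sites. Cdk1 had 2 E2F-type, 2 CHR and 3 CCAAT matches. The windows of Birc5 and Nusap1, mitosis genes described below with differences of opposite sign, held none of these letters.

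Markers of the follicle were present on all arrays, and several measures moved with genotype. The 6 measured inner root sheath genes summed to intensities of 30615 and 27226 against 22352 and 23463, and 5 of the 6 lay below 0. Of 10 hair matrix genes 8 were kept, with Lef1 and Shh too dim, and 5 of the 8 lay above 0 (sums of all 10 were 1883 and 2365 against 1485 and 2632, lowest and highest in the homozygous samples). The 10 measured hair shaft keratins summed to 10039 and 10439 against 15296 and 18094, and 14 dermal fibroblast and matrix genes to 14003 and 11612 against 7193 and 7270. Of these, 10 of 10 keratins lay above 0 and 13 of 14 fibroblast genes below, and none of either list was at 0. Of adipocyte genes 7 of 8 lay below 0 and of melanocyte genes 8 of 9 above, with sums of 13636 and 12439 against 10349 and 6076 and of 1887 and 4557 against 3837 and 7339. The melanocyte sums overlapped between groups. Other lists were mixed: 5 of 9 basal and outer root sheath genes, 3 of 6 leukocyte, 2 of 4 endothelial and 2 of 4 muscle genes lay below 0. All 3 measured blood genes lay above 0. The 9 BioB, BioC, BioDn and CreX probe sets for spike-ins added at hybridization all read lower on both homozygous arrays (mean log2 difference -1.10). The r2 versions of these probe sets, outside that mean, also read lower on both homozygous arrays. For Actb, the 3' probe set divided by the middle one, a measure of signal loss away from the 3' end, gave 42.1 and 11.3 against 45.9 and 33.7. The same ratio for Gapdh gave 17.2 and 30.1 against 15.4 and 14.8. On all arrays the signal of both genes thus lay strongly towards the 3' end. Hr itself, on its brighter probe set, read 293.5 and 80.9 against 90.1 and 156.8. Its dimmer probe set went the other way, at 46.1 and 45.4 against 64.9 and 49.4. The labels do not place the mutation in the transcript. The part of these measures in the results below was not tested. In follicle samples, fewer cells of a type and less RNA per cell cannot be told apart.

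No cell cycle gene passed the test between genotypes. With limma on log2(intensity + 32), where differences of dim probe sets are understated, 0 of 71 member probe sets had a Benjamini-Hochberg adjusted p under 0.05, and 0 of all 13575 probe sets did (background 0%). At an unadjusted p under 0.05 there were 2 of the 71 member probe sets, 1 of Gmnn and 1 of Aurkb, beside 312 of all probe sets (2.3%). Robust eBayes and a fit without intensity trend likewise gave 0 calls, where 290 and 288 probe sets had an unadjusted p under 0.05. Without heterozygous replicate 3 the fit called 17 probe sets, and 0 of them belonged to members. The 95% interval of a member's log2 difference, before adjustment, reached 0.97 to either side at the median. Changes under about that size were thus mostly not detectable with 2 arrays a group. The adjusted threshold was stricter still. Differences over all probe sets ran from -2.93 to 2.4, and the smallest unadjusted p in limma, 0.000291, did not give a call. The 0 calls therefore do not exclude larger changes.

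Taking the brightest probe set of each gene, the members leaned towards lower values in homozygous follicles, by a small amount. Of 44 members 30 lay below 0 and 14 above, with Cdc45 among the former at 0.00, and the median log2 difference was -0.12. Over all 8556 genes 48.7% lay below 0 and 51.3% above, and the median was 0.01. Both homozygous samples were below both heterozygous samples in 8 members (18.2%), beside 13.4% of all genes, and above them in 3 members (6.82%), beside 13.8%. The 8 were Chek1, Mcm5, Rrm2, Prim1, Ccna2, Aurka, Aurkb and Nusap1, and the 3 were Gmnn, Birc5 and Ube2c. In the other 33 members the groups overlapped. Without homozygous replicate 3 the median was -0.06 and 24 of 43 members lay below 0. Without _x_at and _s_at probe sets it was -0.08, with 23 of 40 below 0. By the strain field it was -0.09, with Gmnn at 0.77, Prim1 at -0.39, Nusap1 at -0.34, Aurkb at -0.36 and Birc5 at 0.63.

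**Figure D2:**
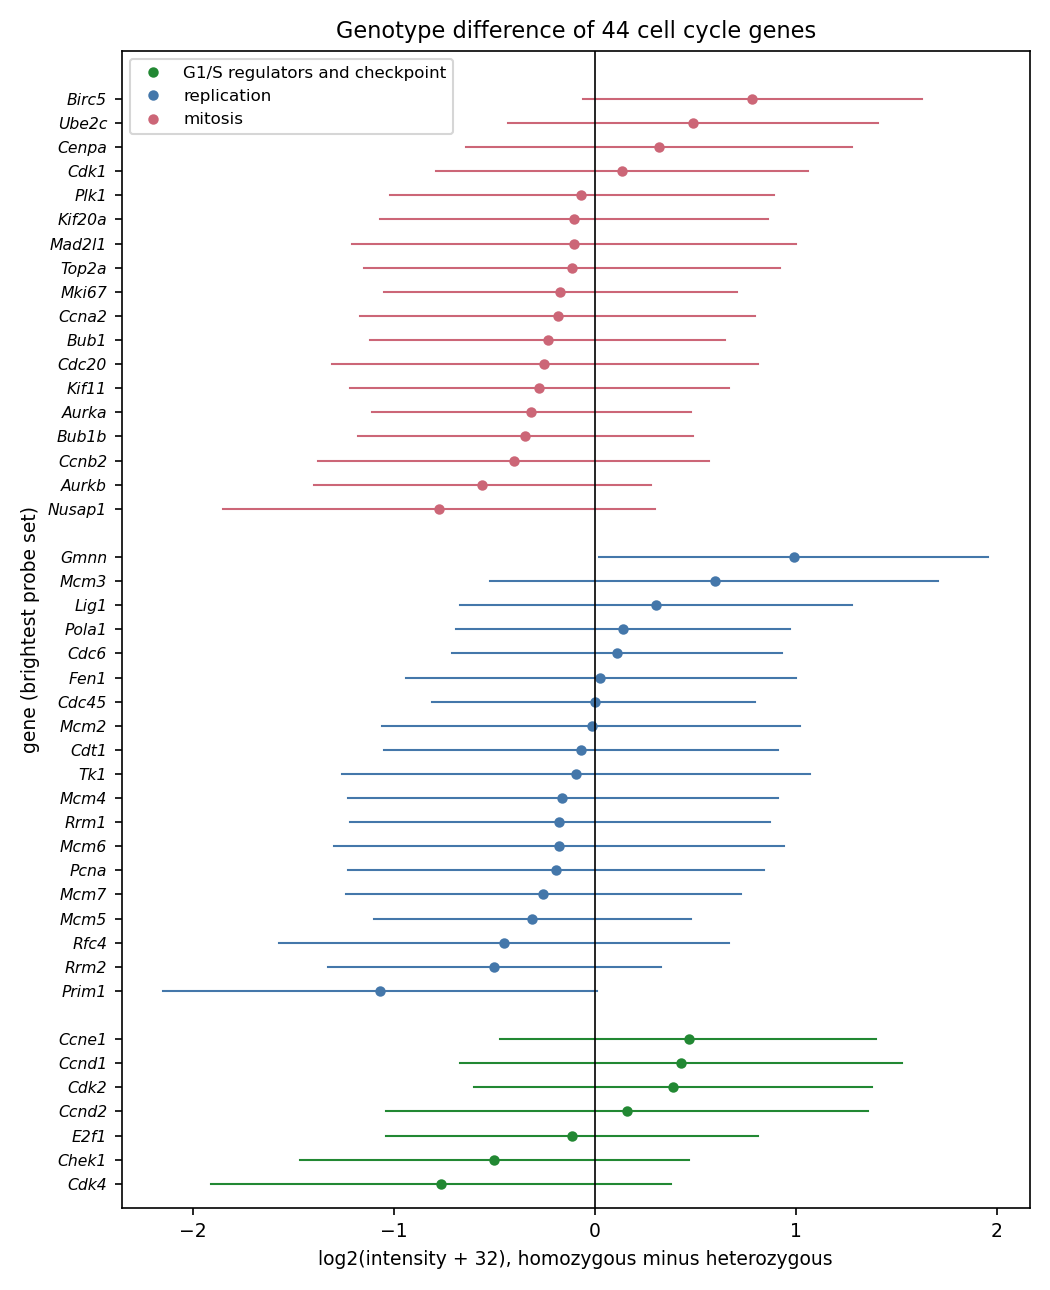
Log2 difference, homozygous minus heterozygous, of the 44 kept cell cycle genes by role (points) with the unadjusted 95% interval from limma (bars), 2 samples per group. The points run from -1.07 (Prim1) to 0.99 (Gmnn), and all intervals except that of Gmnn include 0.

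Licensing and origin firing genes differed from one another. Gmnn encodes geminin, the protein that blocks Cdt1 and so prevents an origin from being licensed again. It read 723 and 728 against 1565 and 1388. The 2 heterozygous values were nearly equal and both homozygous values lay far above them. The log2 difference was 0.99 ± 0.44 (SE, n = 2 per group; 1.99-fold; limma unadjusted p = 0.0465, adjusted p = 1), the highest of all 44 members. It ran from 0.91 to 1.08 when each sample was left out in turn. Cdt1, the licensing factor that geminin binds, read 1003 and 1038 against 1072 and 877, with overlapping groups and a log2 difference of -0.07 ± 0.44. Cdc6, which loads the helicase together with Cdt1, differed by 0.11 ± 0.37. Cdc45, a part of the active helicase at the fork, read 79.4 and 51.5 against 71.2 and 58.1.

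The MCM genes, which encode the 6 subunits of the replicative helicase, varied more between samples of a genotype than between genotypes. Their median log2 difference was -0.17, with 5 of 6 below 0. Mcm7 read 2188 and 1337.5 against 1509 and 1348. Mcm6 read 668 and 374 against 589 and 324.5. Mcm2 read 511 and 321.5 against 473 and 339 (log2 difference -0.02 ± 0.47). In each of these genes heterozygous replicate 3 and homozygous replicate 2 were the 2 higher samples. Mcm4, at 814 and 661 against 869 and 488, had the same order of pairs. So did Mcm3, at 359 and 132 against 369 and 334, which had the highest difference of the 6 (0.60 ± 0.50). Its low value lay in heterozygous replicate 4, without which the difference was -0.03, while without heterozygous replicate 3 it was 1.22. Mcm5 was dimmer and ordered by genotype, at 64 and 68.1 against 41.5 and 52.9 (-0.31 ± 0.36).

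Heterozygous replicate 4 and homozygous replicate 3 were thus the 2 lowest samples in 5 of 6 MCM genes, beside 16.3% of all genes. Those 5 brightest probe sets have names ending in _x_at or _s_at, a class that can share probes with other transcripts, and 29% of all genes represented by such probe sets had this order. Of the 8 other kept MCM probe sets 3 had it. The Actb ratio given above was also lower in these 2 samples than in the other pair, whereas the Gapdh ratio was highest in heterozygous replicate 4 and lowest in homozygous replicate 3, and their part in this order was not tested. The order does not follow genotype.

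The 3 measured genes of enzymes that supply nucleotides all lay below 0, with intervals that include 0. Rrm2, the regulated subunit of ribonucleotide reductase, read 3874 and 4292 against 3421 and 2408, so the groups did not overlap (-0.50 ± 0.38, unadjusted p = 0.209, adjusted p = 1 in limma). Its dimmer kept probe sets had log2 differences of 0.03 and -0.66, so the sign rests on the probe set chosen. On the brightest the difference ran from -0.75 without homozygous replicate 2 to -0.25 without homozygous replicate 3. Rrm1, the large subunit, read 705 and 464 against 433 and 583. Tk1, the thymidine kinase of the salvage route, read 216 and 47.4 against 135 and 71.3 and had its spread within the heterozygous pair. The 3 dim probe sets of Tyms read between 1.2 and 27.3 in all samples.

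At the fork, Prim1 had the lowest difference of all members. It encodes the catalytic subunit of primase, which makes the RNA primers of new strands. It read 1704 and 948 against 704 and 494. Both homozygous values lay below both heterozygous values, although the heterozygous samples also differed from each other. The log2 difference was -1.07 ± 0.49 (2.10-fold lower; limma unadjusted p = 0.0527, adjusted p = 1). It was -0.66 without heterozygous replicate 3 and -1.48 without heterozygous replicate 4. Its dimmer probe set read 182 and 306 against 156.5 and 259, with overlapping groups and a difference of -0.20 ± 0.45. Pola1, the catalytic subunit of the polymerase that works with primase, differed by 0.14 ± 0.38.

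The sliding clamp gene Pcna read 706 and 1142 against 756 and 809.5 (-0.19 ± 0.47), and heterozygous replicate 4 alone was high. Rfc4, a subunit of the clamp loader, read 772 and 655 against 760 and 341 (-0.45 ± 0.51), and homozygous replicate 3 alone was low. Fen1, the nuclease that trims Okazaki fragments, was bright and close to 0, at 1237 and 1819 against 1409 and 1661 (0.03 ± 0.44). Lig1, the ligase that seals these fragments, differed by 0.31 ± 0.44. Among the 6 fork genes 3 lay above and 3 below 0.

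**Figure D3:**
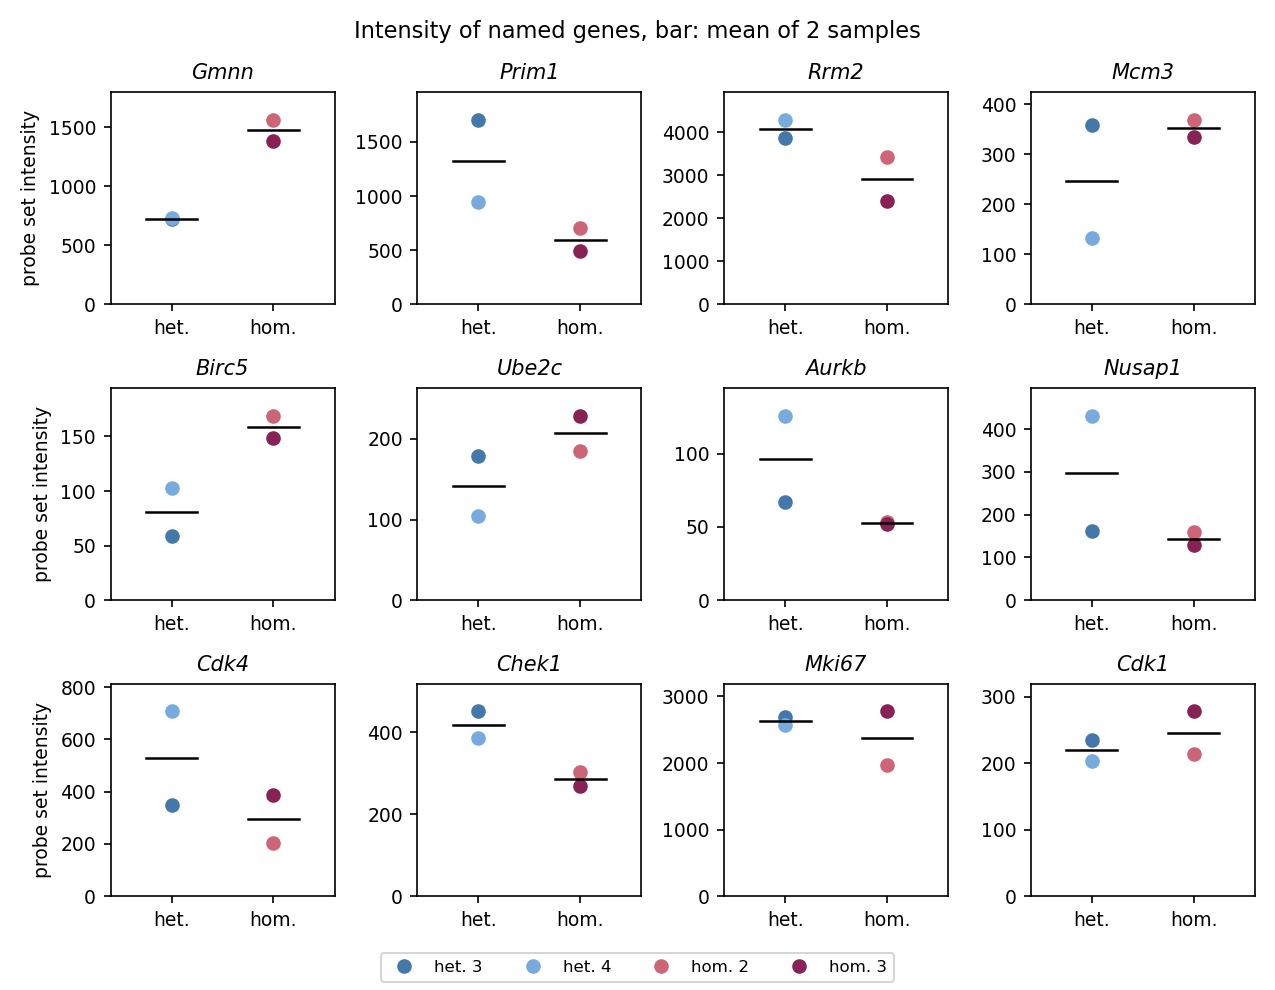
Probe set intensity (linear axes from 0) of 12 cell cycle genes in the 2 heterozygous and 2 homozygous samples, coloured by sample, with bars at the mean of each group. Gmnn, Birc5 and Ube2c lie higher in both homozygous samples and Prim1, Rrm2, Aurkb, Nusap1 and Chek1 lower, while Mcm3, Cdk4, Mki67 and Cdk1 overlap.

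Among the 7 G1/S regulators and checkpoint genes 4 lay above 0 (Ccnd1, Ccnd2, Ccne1 and Cdk2) and 3 below (Cdk4, E2f1 and Chek1). Cdk4, the kinase partner of D-type cyclins, read 350 and 707 against 202 and 387 (-0.76 ± 0.52, limma unadjusted p = 0.169, adjusted p = 1). Homozygous replicate 3 lay above heterozygous replicate 3, so the groups overlapped, and the 3 kept probe sets of Cdk4 ran from -0.76 to -0.52. The difference ran from -1.24 without heterozygous replicate 3 to -0.29 without heterozygous replicate 4. Cyclin D1, encoded by Ccnd1, read 347 and 573 against 468 and 802 (0.43 ± 0.50), and its other kept probe set differed by 0.41. On the brighter probe set the difference was 0.06 without homozygous replicate 3 and 0.09 without heterozygous replicate 3, reached 0.80 without homozygous replicate 2 and 0.77 without heterozygous replicate 4, and turned to -0.20 by the strain field. Cyclin E1, from Ccne1, read 159 and 69.3 against 177 and 145 (0.47 ± 0.42), but the difference was 0.01 without heterozygous replicate 4 and 0.93 without heterozygous replicate 3. Its partner Cdk2 read 60.9 and 136 against 87.9 and 191. E2f1 encodes the transcription factor released at the G1/S border. Its brightest probe set was even across samples at 232.5 and 271 against 238 and 220.5 (-0.12 ± 0.42). The dimmer kept probe set of E2f1 was not, at 38 and 89.3 against 29.1 and 62.4 (-0.28 ± 0.42). Chek1, the checkpoint kinase that restrains cells with stalled forks, read 451 and 386 against 302 and 269.5 and did not overlap (-0.50 ± 0.44, limma unadjusted p = 0.278). This is an _s_at probe set, and by the strain field the difference was -0.24. The other Chek1 probe sets, too dim to be kept, differed by 0.42, 0.06 and 0.19.

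Ccnd2, which encodes cyclin D2, differed widely between samples of one genotype. A bright probe set read 1560 and 126 against 400.5 and 1346. Another bright probe set read 2561 and 160.1 against 686.5 and 2460.5. Heterozygous replicate 3 and homozygous replicate 3 were high on both, and heterozygous replicate 4 was the lowest. The brightest had the same high pair and the same lowest sample with a smaller range, at 1526 and 664 against 813 and 1575.5. The genotype difference was 0.16 ± 0.54 on that probe set and ran from -0.03 to 0.92 over the 6 kept ones. The dimmest kept probe set had the opposite order, at 13.5 and 161 against 62.8 and 56.4.

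**Figure D4:**
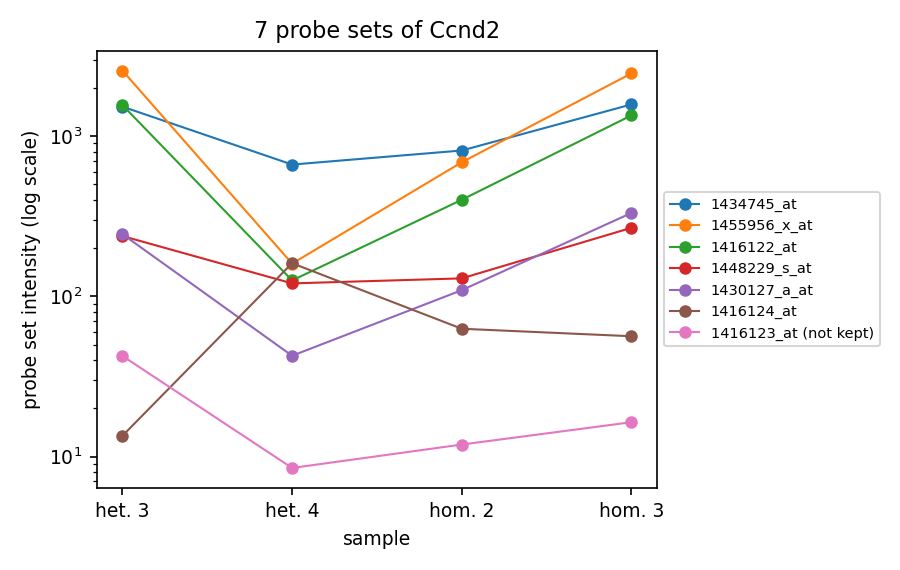
Intensity (log axis) of the 7 probe sets of Ccnd2 in each of the 4 samples; each line joins the values of 1 probe set and implies no order of samples. All except the dimmest kept probe set are lowest in heterozygous replicate 4.

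Mitosis genes leaned lower in homozygous follicles, with 14 of 18 below 0 and a median log2 difference of -0.18. The count below 0 was 10 of 18 without heterozygous replicate 4 and likewise without homozygous replicate 2. Both homozygous samples were below both heterozygous samples in 4 genes and above in 2, beside the 13.4% and 13.8% of all genes given above. The usual proliferation markers among them had small differences. Mki67, the Ki-67 antigen gene, read 2699 and 2571 against 1965 and 2777 (-0.17 ± 0.40, 95% interval -1.05 to 0.71). Top2a, the topoisomerase that untangles sister chromatids, read 788.5 and 1065 against 696 and 1020 (-0.12 ± 0.47). For both genes the groups overlapped, and without homozygous replicate 2 the differences were 0.08 and 0.15. Cdk1, the kinase of mitotic entry, read 235 and 203.5 against 213 and 278 (0.14 ± 0.42).

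Of the cyclins and kinases of mitosis 5 of 6 lay below 0. Aurkb, the kinase of the chromosomal passenger complex that corrects spindle attachments, read 66.7 and 126 against 53.3 and 51.9 (-0.56 ± 0.38, limma unadjusted p = 0.167). Its other kept probe set read 75.9 and 122 against 24.8 and 49.0 (-0.92 ± 0.39, limma unadjusted p = 0.0358, adjusted p = 1). Neither probe set overlapped between groups. The difference on the brighter one was -0.22 without heterozygous replicate 4 and -0.90 without heterozygous replicate 3. Aurka, the related kinase of the spindle poles, read 73.0 and 61.3 against 55.2 and 40.4 (-0.32 ± 0.36). Ccna2, the cyclin of S and G2, read 539 and 555 against 461.5 and 493 (-0.18 ± 0.45), a small difference with samples that agreed closely. Ccnb2, a mitotic B-type cyclin, differed by -0.40 ± 0.44, with heterozygous replicate 3 highest at 214 and homozygous replicate 3 lowest at 79.7. Plk1, the polo-like kinase, read 217 and 119 against 119 and 196, so both groups spanned nearly the same range.

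Birc5 lay opposite to its partner Aurkb. It encodes survivin, another subunit of the passenger complex, and read 58.8 and 103 against 169 and 149. Both homozygous values were the higher ones (0.78 ± 0.38, 1.72-fold; limma unadjusted p = 0.0659, adjusted p = 1). Without heterozygous replicate 3 the difference was 0.50. Ube2c, the ubiquitin-conjugating enzyme of the anaphase-promoting complex, read 179 and 104 against 185 and 229 (0.49 ± 0.42). Its groups did not overlap, by a narrow margin, and the difference ran from 0.18 without heterozygous replicate 4 to 0.80 without heterozygous replicate 3. Cdc20, which activates the same complex, read 2326 and 1130 against 1217 and 1516 (-0.25 ± 0.48). On this probe set the difference came with a high heterozygous replicate 3. Its dimmer kept probe set read 275 and 200 against 137 and 170, without overlap (-0.53 ± 0.41). Cenpa, the centromeric histone, differed by 0.32 ± 0.44.

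The spindle checkpoint genes Bub1, Bub1b and Mad2l1 hold back anaphase until chromosomes are attached. On their brightest probe sets all were highest in heterozygous replicate 4. Their log2 differences were -0.23 ± 0.40, -0.35 ± 0.38 and -0.10 ± 0.50. The dimmer kept probe set of Bub1 was highest in homozygous replicate 2, at 68 and 63 against 73.7 and 26 (-0.32 ± 0.40). Mad2l1 read 403 and 682 against 643 and 368, so homozygous replicate 2 was near the top and the groups overlapped. Nusap1, a microtubule-bundling protein of the spindle, read 162.5 and 431.5 against 160 and 128 (-0.78 ± 0.49, limma unadjusted p = 0.140). Heterozygous replicate 4 again stood above the rest, and heterozygous replicate 3 lay next to homozygous replicate 2. The difference was -0.15 without heterozygous replicate 4 and -1.40 without heterozygous replicate 3. The other Nusap1 probe set, too dim to be kept, went the other way without overlap, at 3 and 1.5 against 12.4 and 26.3 (0.57). The kinesin motor genes Kif11 and Kif20a differed by -0.28 ± 0.43 and -0.10 ± 0.44. The dimmer kept probe set of Kif11 differed by -0.56 ± 0.37, without overlap.

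Replication and mitosis genes were next compared within samples. For each gene the log2 deviation from its mean over the 4 arrays was taken, and the median over genes was formed per sample. Replication genes had medians of 0.21 and -0.20 against 0.10 and -0.10. Mitosis genes had medians of 0.02 and 0.06 against -0.12 and -0.05. Replication genes were therefore split within each genotype, while for mitosis genes both homozygous medians were below both heterozygous ones.

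The balance, replication minus mitosis, was 0.19 and -0.26 against 0.22 and -0.05. The genotypes differed in it by 0.12, less than the SD between samples of a genotype (0.32 heterozygous, 0.19 homozygous). The 2 heterozygous samples differed by 0.45. Without heterozygous replicate 4 the genotype difference turned to -0.13, and without homozygous replicate 2 to -0.06. The median log2 difference of replication genes between genotypes was -0.09 (13 of 19 below 0). It turned to 0.09 without heterozygous replicate 3, to 0.07 without homozygous replicate 3 and to 0.13 by the strain field, and was 0.00 without _x_at and _s_at probe sets (8 of 17 below 0). That of mitosis genes stayed between -0.12 and -0.21 when any sample was left out, and was -0.16 by the strain field. With 2 samples a group no test of these medians was made.

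**Figure D5:**
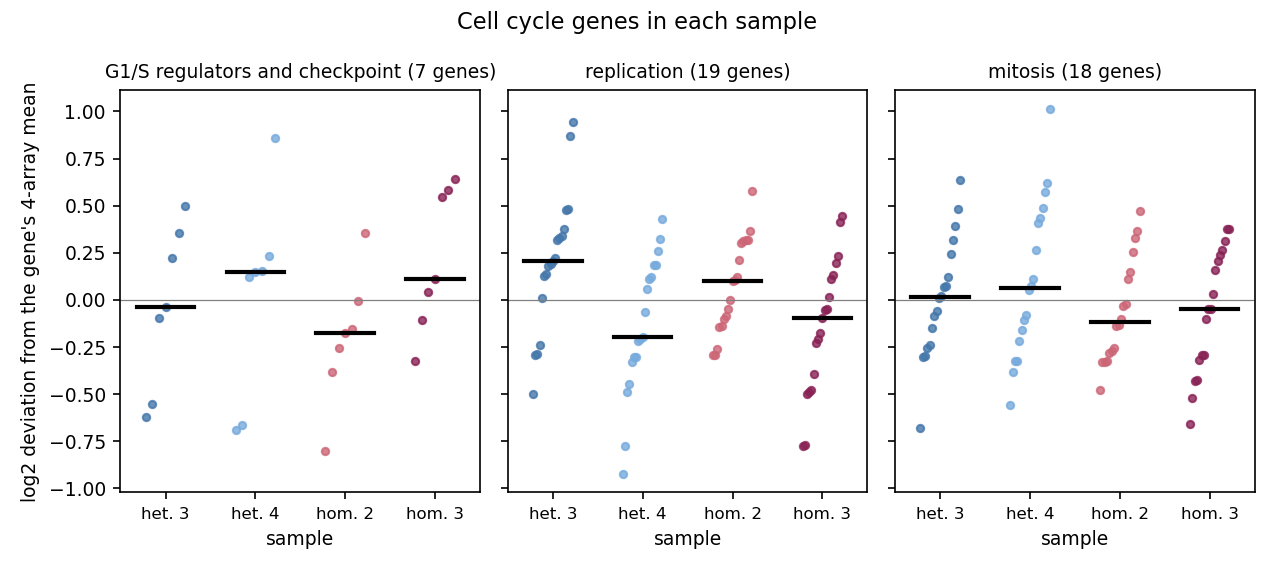
Log2 deviation of each cell cycle gene from its 4-array mean (points, sorted within a sample) and the median over genes (black bar) in the 4 samples, by role. The replication medians are 0.21 and -0.20 for heterozygous replicates 3 and 4 against 0.10 and -0.10 for homozygous replicates 2 and 3, and the mitosis medians run from -0.12 to 0.06.

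Where a gene had several kept probe sets, they often disagreed at this size of difference. Of 18 such members 11 had all probe sets on one side of 0 and 7 did not: Ccnd2, Cdt1, Mcm2, Mcm4, Mcm7, Rfc4 and Rrm2. Agreement was closest in Ccnd1 (0.41 and 0.43) and Mcm6 (-0.18 and -0.15). It was poorest in Ccnd2, Prim1 and Rrm2, whose probe sets spanned 0.96, 0.87 and 0.69. The genotype difference was larger than the gap within either pair of replicates in 8 of 44 members (18.2%), beside 16.4% of all genes. These were Gmnn, Birc5, Prim1, Rrm2, Chek1, Mcm5, Aurka and Ccna2.

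Other genes of the same processes, from a list of 103 of which 80 were measured, gave similar counts: 52 lay below 0, 28 lay above it, 0 were called and the median difference was -0.12 (log2). Of 8 pocket proteins and other E2F factors 7 lay below 0 (median -0.55), and in 4 both homozygous samples were below both heterozygous samples, beside 13.4% of all genes. E2f8, an atypical E2F repressor, read 476 and 463 against 295 and 292 (-0.62 ± 0.44). E2f5, which acts with pocket proteins as a repressor, read 148 and 253 against 99.6 and 105 (-0.75 ± 0.40). E2f6, another repressor, differed by -0.61 ± 0.37. Of 5 CDK inhibitors, brakes on the cyclin kinases, 3 lay below 0, with Cdkn1b (p27) at 413 and 317.5 against 245 and 214 (-0.60 ± 0.43).

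The 27 other replication genes were even, with 14 below 0 and a median of 0.00. Pole, the leading-strand polymerase, read 133 and 102 against 71.2 and 39.3 (-0.79 ± 0.37, limma unadjusted p = 0.0586). Rpa2, a subunit of the protein that coats single-stranded DNA, lay the other way, at 15.0 and 18.8 against 121 and 21.1 (0.88 ± 0.50), with homozygous replicate 2 alone high. Orc2, a subunit of the origin recognition complex, differed by -0.62 ± 0.42. Of 34 other mitosis genes 24 lay below 0 (median -0.13). Hmmr, a spindle-associated hyaluronan receptor, read 370.4 and 367 against 181 and 228 (-0.77 ± 0.43), and the cytokinesis factor Ect2 differed by -0.73 ± 0.45. Nek2, a centrosome kinase, lay the other way, at 33.6 and 46.8 against 75.9 and 73.2 (0.57 ± 0.36). Of 6 other G1 cyclins and kinases 4 lay below 0, with Ccnh, the cyclin of the CDK-activating kinase, at -0.80 ± 0.46.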

How the data were processed

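The deposited table holds linear intensities of probe sets on 4 arrays, a scale inferred from the values. The trimmed mean without the lowest and highest 2% was 165.1 on every array, so the authors had scaled the arrays to a common level. Which software and background correction made them is not given in the sources used here. Values were kept at this scaling and taken as log2(intensity + 32). Control probe sets (64) took no part. Of the rest, the brightest 60% by mean log2 value entered the tests. Genes were named from the platform annotation by probe sets with 1 symbol, and all 88 member probe sets matched a RefSeq record of that symbol by Entrez identifier. The brightest probe set represents a gene.

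The genotype test used limma 3.58.1 under R 4.3.3. It ran lmFit and eBayes with an intensity trend and was two-sided, with 2 residual and 8.63 prior degrees of freedom. P-values were adjusted by Benjamini-Hochberg across the 13575 probe sets, and 0.05 was the limit for a call. The fit was tested on simulated data. No read depth exists for arrays, and their number limits the precision. Values in every sample are given for members with an unadjusted p under 0.05, for the 4 with the smallest p and the opposite extreme of each role, and for 5 usual markers, and for others where a sentence describes them, which were chosen after their values were seen. From each related list up to 3 genes with the smallest p are named. The 15 alternatives change pseudocount, filter, scaling, probe set choice, eBayes, grouping or leave out a sample. Members and lists were chosen with earlier results of these data known. The promoter motifs were chosen from general knowledge.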

Additional observations from a re-analysis of the deposited data

How the results depend on the processing

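Across 15 alternatives, 239 of 253 values of the 17 fully described genes kept their sign. Other eBayes settings and filters leave these differences unchanged, so part of this count was fixed in advance. Where all 4 samples were kept, 0 of these genes passed the threshold. The count of called probe sets stayed at 0 except when heterozygous replicate 3 was left out (17, with the range over left-out samples 0 to 17). Over left-out samples the median log2 difference ran from -0.16 to -0.06 for all members, from -0.28 to 0.09 for replication genes and from -0.21 to -0.12 for mitosis genes, and the genotype difference in replication minus mitosis from -0.13 to 0.28. By the strain field of homozygous replicate 3 the replication median was 0.13, Ccnd1 -0.20, Mcm2 0.29 and Cdk1 -0.13. With the mean of all kept probe sets Mcm2 was 0.00. Without _x_at and _s_at probe sets Mcm2 was 0.02 and Rrm2 0.03. Over left-out samples signs turned for 6 genes: Mcm2 ran from -0.33 to 0.29 (above 0 without heterozygous or homozygous replicate 3), Mcm3 from -0.03 (without heterozygous replicate 4) to 1.22, Pcna from -0.53 to 0.14 (without heterozygous replicate 4), Top2a from -0.38 to 0.15 (above 0 without heterozygous replicate 4 or homozygous replicate 2), Mki67 from -0.42 to 0.08 (without homozygous replicate 2) and Cdk1 from -0.03 (without homozygous replicate 3) to 0.31. The cause was not tested. With a sample left out, the lone sample is assumed to vary like the other group. No paired analysis was made, because the labels tie no array to an animal. The groups share only replicate number 3.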
